A study of Mus musculus with 10 samples.

Results

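The fibrillar collagen genes are the family whose products assemble into the cross-striated fibrils of connective tissue. They were taken as Col1a1, Col1a2, Col2a1, Col3a1, Col5a1, Col5a2, Col5a3, Col11a1, Col11a2 and Col27a1, and for each gene the probe set annotated with its symbol alone that was brightest on average over the 10 arrays was chosen. All 10 were measured, by 12 probe sets in all, among 22180 genes. Whole tumours were compared between 5 Ezh2-/- and 5 Ezh2+/+ Tet-ON PyVmT mammary tumours, flash frozen at the tumour burden endpoint, with 1 Affymetrix Mouse Gene 2.0 ST array for each. In both genotypes the MMTV promoter drives rtTA, and doxycycline in the drinking water then switches on a bicistronic transgene that encodes the polyomavirus middle T oncogene and Cre recombinase, in females of a pure FVB background induced as young adults. In Ezh2-/- tumours Cre also deletes the conditional Ezh2 alleles, whereas Ezh2+/+ tumours carry wild-type Ezh2. The authors report a later tumour onset in Ezh2-deficient mice. Age and time on doxycycline at the endpoint may therefore differ between genotypes, and cannot be told apart here from the loss of Ezh2. Cre acts in the mammary epithelium, so stromal cells within an Ezh2-/- tumour keep Ezh2, the methyltransferase subunit of the Polycomb repressive complex that places methyl groups on histone H3 lysine 27. The labels call the tumours biological replicates without stating that they were taken from separate mice, so the p-values measure the spread between these tumours.

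A fibrillar collagen is made as a procollagen of 3 chains wound into a triple helix, which is hydroxylated and folded in the endoplasmic reticulum, trimmed by proteinases outside the cell and crosslinked by lysyl oxidases. Types I and III form the bulk of the fibrils in skin, vessel walls and the stroma of mammary tumours, where fibroblasts are the main producers. Types V and XI are minor chains that sit inside the fibril and limit its diameter. Type II is the collagen of cartilage, and type XXVII is a more distant member that is also found in cartilage.

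Signals were taken as log2 values, ranging between 0.595 and 13.2 over all probe sets, with array medians of 4.35 to 4.46 in Ezh2-/- tumours, against 4.54 to 4.67 in Ezh2+/+ tumours. With 5 arrays for each genotype, that number sets the precision. The signal of Ezh2 itself was 6.36 to 6.5 in Ezh2-/- tumours, against 6.98 to 7.69 in Ezh2+/+ tumours (log2 fold change -1.03, standard error (SE) 0.14, limma adjusted p = 0.000770), although it is not known here whether its probes lie in the deleted part. Markers of the labelled tissue were present on every array, with Krt8 at 9.49 to 9.77 in Ezh2-/- tumours, against 9.68 to 10.20 in Ezh2+/+ tumours, and Epcam at 9.82 to 10.25 in Ezh2-/- tumours, against 9.96 to 10.20 in Ezh2+/+ tumours. Markers of skeletal muscle stood out on Ezh2-/- replicates 1 and 5, where Acta1, the actin of skeletal muscle fibres, had signals of 11.1 and 9.87, against 6.30 to 7.37 in the other Ezh2-/- tumours and 5.87 to 6.94 in Ezh2+/+ tumours.

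Of the 10 fibrillar collagen genes, 6 rose in Ezh2-/- tumours, 0 fell and 4 were not called. A gene was called at a Benjamini-Hochberg adjusted p under 0.05 in limma, a moderated test fitted to the whole table. Over all genes 7.29% were called higher and 7.56% lower. The genes that rose were Col3a1 (4.37-fold), Col1a1 (3.74-fold), Col1a2 (3.17-fold), Col11a1 (3.09-fold), Col5a2 (2.06-fold) and Col5a1 (1.93-fold). Those not called were Col2a1, Col5a3, Col11a2 and Col27a1, each with a log2 fold change between -0.16 and 0.09. The median log2 fold change was 1.00 over the 10 genes and 0.026 over all genes. At an unadjusted p under 0.05 in limma the counts were again 6 higher and 0 lower, beside 18.0% and 15.6% of all genes, and with the equal-variance test per gene that the methods name they were 5 and 0 after adjustment (3.89% and 5.20% of all genes). Without adjustment that test gave 6 higher and 0 lower (16.1% and 15.0% of all genes). With a fold over 1.5 as well, the counts were the same (4.79% and 4.28% of all genes). Without single tumours the share of all genes called higher lay between 3.37%, without Ezh2-/- replicate 4, and 11.4%, without Ezh2-/- replicate 5, and it also moved by more than 1.5 times on leaving out Ezh2-/- replicate 1 (4.73%), 2 (3.94%) or 3 (4.79%) or Ezh2+/+ replicate 5 (3.72%). In the same fits 5 or 6 of the fibrillar collagen genes were called higher, and without both tumours high in Acta1, an alternative chosen after seeing the data, all 6 remained called.

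Type I collagen is built of 2 chains from Col1a1 and 1 chain from Col1a2, and both genes rose. Col1a1 had log2 signals of 9.39, 9.63, 9.59, 10.45 and 9.11 in Ezh2-/- replicates 1 to 5, against 8.41, 8.46, 7.17, 7.04 and 7.60 in Ezh2+/+ replicates 1 to 5. Every Ezh2-/- tumour lay above every Ezh2+/+ tumour, with replicate 4 the highest among Ezh2-/- tumours and replicates 3 and 4 the lowest among Ezh2+/+ tumours. This gave a log2 fold change of 1.90 (SE 0.31, limma adjusted p = 0.00299), which ranked 19 of 22180 genes by the size of the rise. Col1a2 had signals of 9.18, 9.14, 8.85, 9.94 and 8.67 in Ezh2-/- tumours, against 8.28, 7.98, 7.06, 6.77 and 7.37 in Ezh2+/+ tumours, again with no overlap between the genotypes. Its change was 1.66 (SE 0.30, adjusted p = 0.00491). The genotypes did not overlap for 5 of the 10 fibrillar collagen genes, all higher in Ezh2-/- tumours, where 5.05% of all genes were higher and 6.63% lower without overlap. A second, dimmer probe set of Col1a2 had values of 5.46 to 6.64 in Ezh2-/- tumours, against 4.03 to 5.20 in Ezh2+/+ tumours, a mean difference of 1.44 in the same direction.

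Col3a1, whose 3 identical chains make up the type III collagen that accompanies type I in soft tissue, had the largest change of the family. Its log2 signals were 9.30, 8.33, 8.68, 9.77 and 8.98 in Ezh2-/- tumours, against 7.37, 7.56, 6.39, 6.14 and 6.96 in Ezh2+/+ tumours. No values were shared between the ranges, and the order of the Ezh2+/+ tumours was close to that for type I, with replicates 3 and 4 lowest. The log2 fold change of 2.13 (SE 0.31, adjusted p = 0.00140) ranked 11 of 22180 genes. Each of Col1a1, Col1a2 and Col3a1 kept its call in all 10 fits that left out 1 tumour, with log2 fold changes of 1.70 to 2.08 for Col1a1, 1.47 to 1.86 for Col1a2 and 1.94 to 2.30 for Col3a1.

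**Figure D1:**
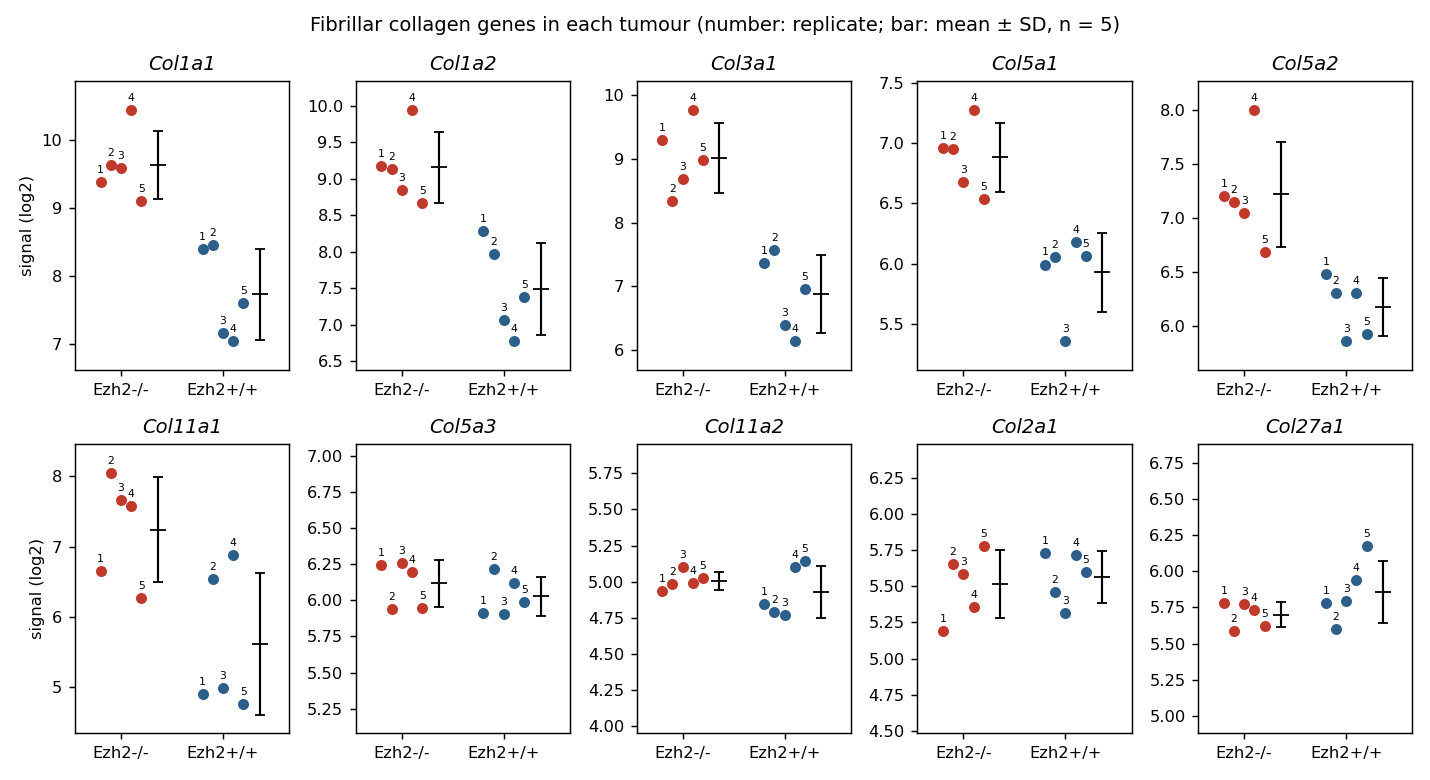
Log2 signal of the 10 fibrillar collagen genes in each tumour, with Ezh2-/- tumours in red and Ezh2+/+ tumours in blue, the replicate number above each point, and the mean ± SD (n = 5) as a black bar to the right of the points. The y axes differ between genes. In the top row every red point lies above every blue one, Col11a1 rises with overlap, and the other 4 genes overlap throughout.

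To show the sequence in front of the genes with the largest changes, the 250 bases that precede the annotated start of Col1a2 and Col3a1 are printed 5′ to 3′ from RefSeq (GRCm38.p6), both on the plus strand. These were the genes with the largest changes among the 7 for which a window was at hand. Capitals mark every match, on either strand and with overlaps between motifs not excluded, to CCAAT (the box bound by the NF-Y complex), TATAAA (the box of the general initiation factors) or GGGCGG (the box of the Sp1 family).
Col1a2, chr6:4505368-4505617: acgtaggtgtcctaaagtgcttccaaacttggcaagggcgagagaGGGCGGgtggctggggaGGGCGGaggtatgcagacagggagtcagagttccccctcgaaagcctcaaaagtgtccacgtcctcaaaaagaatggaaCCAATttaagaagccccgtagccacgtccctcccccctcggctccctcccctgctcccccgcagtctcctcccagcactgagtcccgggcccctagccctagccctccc
Col3a1, chr1:45311288-45311537: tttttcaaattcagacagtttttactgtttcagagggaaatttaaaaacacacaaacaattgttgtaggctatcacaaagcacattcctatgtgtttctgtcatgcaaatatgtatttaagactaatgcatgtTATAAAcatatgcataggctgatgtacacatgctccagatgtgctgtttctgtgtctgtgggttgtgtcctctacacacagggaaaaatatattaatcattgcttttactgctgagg

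The windows of these 2 genes had little in common in base composition. That of Col1a2 held 62.0% G and C, 11 CpG dinucleotides, 1 CCAAT and 2 GGGCGG, whereas that of Col3a1 held 35.2% G and C, 0 CpG and 1 TATAAA. Over all 32851 RefSeq windows of the same length, 33.8% held CCAAT, 12.4% TATAAA and 32.7% GGGCGG, and the median G and C content was 52.4%. The CpG ratio, the number of CpG observed over that expected from the bases, was 0.47 for Col1a2 and 0 for Col3a1, with a median of 0.37 over all windows. Among the other genes it was 0.77 for Col5a1 and 0.33 for Col11a1, which rose, and 0.69 for Col5a3, 0.68 for Col11a2 and 0.71 for Col27a1, which did not pass, so the values of both sets overlapped. The windows of Col5a1, Col11a1, Col5a3 and Col11a2 reach into the annotated gene, and that of Col27a1 lies wholly within it. The bases of these 5 windows are not shown. A match of letters is a description of the window and does not show that a factor binds there.

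Of the type V chains, which nucleate fibrils of type I and stay buried within them, Col5a1 and Col5a2 rose by about the same amount and Col5a3 did not pass. Col5a1 had log2 signals of 6.96, 6.95, 6.68, 7.27 and 6.54 in Ezh2-/- tumours, against 5.99, 6.06, 5.36, 6.18 and 6.06 in Ezh2+/+ tumours. Again the ranges were apart, and Ezh2+/+ replicate 3 lay far below the rest of its genotype. The log2 fold change was 0.95 (SE 0.18, adjusted p = 0.00586). A second probe set of Col5a1, at 3.77 to 4.25 in Ezh2-/- tumours, against 4.13 to 4.56 in Ezh2+/+ tumours, went the opposite way with a mean difference of -0.37. Its signals lay near or below the array medians, which were 4.35 to 4.46 in Ezh2-/- and 4.54 to 4.67 in Ezh2+/+ tumours. With all probe sets tested, 10.7% were called lower and 5.25% higher. Whether this probe set measures Col5a1 or background was not tested. When both probe sets were averaged the log2 fold change was 0.29 and the call was lost (adjusted p = 0.104), so the rise of Col5a1 rests on the brighter probe set.

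Col5a2, the partner chain in the most common form of type V, had signals of 7.20, 7.14, 7.05, 8.0 and 6.68 in Ezh2-/- tumours, against 6.48, 6.30, 5.85, 6.30 and 5.92 in Ezh2+/+ tumours. Again there was no overlap, though Ezh2-/- replicate 5 exceeded Ezh2+/+ replicate 1 by little. The log2 fold change was 1.04 (SE 0.21, adjusted p = 0.00941). In GRCm38.p6, Col5a2 spans chr1:45374331-45503282 and lies 24624 bases from Col3a1, at chr1:45311538-45349706, with 0 annotated genes between them. Col5a3, a chain of more restricted expression, had signals of 6.24, 5.94, 6.26, 6.20 and 5.95 in Ezh2-/- tumours and 5.92, 6.22, 5.90, 6.12 and 5.99 in Ezh2+/+ tumours. The genotypes overlapped throughout, and the log2 fold change of 0.089 had a 95% interval of -0.15 to 0.33 (adjusted p = 0.599).

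Type XI collagen is the counterpart of type V in cartilage fibrils, and Col11a1 is also made by fibroblasts of many carcinomas. Col11a1 had log2 signals of 6.65, 8.05, 7.66, 7.58 and 6.28 in Ezh2-/- tumours, against 4.91, 6.54, 4.99, 6.89 and 4.76 in Ezh2+/+ tumours. It had the widest spread of the family in both genotypes (SD 0.75 in Ezh2-/- and 1.01 in Ezh2+/+ tumours, n = 5 each), and Ezh2+/+ replicates 2 and 4 reached into the range of Ezh2-/- tumours. The log2 fold change was 1.63 (SE 0.46, adjusted p = 0.0343). The call was lost with the methods' test (adjusted p = 0.102), after quantile normalization (adjusted p = 0.0515), after cyclic loess (adjusted p = 0.0526), and in 6 of the 10 fits that left out 1 tumour, namely without Ezh2-/- replicate 2, 3 or 4 or Ezh2+/+ replicate 1, 3 or 5 (adjusted p up to 0.0836). The methods' test without adjustment called Col11a1 higher. Without both tumours high in Acta1 the log2 fold change was 2.15 (adjusted p = 0.0146). Col11a2, another chain of type XI, had signals of 4.93, 4.99, 5.10, 4.99 and 5.02 in Ezh2-/- tumours and 4.85, 4.79, 4.77, 5.11 and 5.14 in Ezh2+/+ tumours. They overlapped, with a log2 fold change of 0.077 and a 95% interval of -0.15 to 0.31 (adjusted p = 0.639).

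Of the collagens known from cartilage, types II and XXVII did not pass. Col2a1, which encodes type II collagen, had signals of 5.19, 5.65, 5.58, 5.36 and 5.78 in Ezh2-/- tumours and 5.73, 5.46, 5.32, 5.72 and 5.60 in Ezh2+/+ tumours, with a log2 fold change of -0.05 and a 95% interval of -0.34 to 0.24 (adjusted p = 0.811). Col27a1 had signals of 5.78, 5.59, 5.78, 5.73 and 5.62 in Ezh2-/- tumours and 5.78, 5.60, 5.79, 5.94 and 6.17 in Ezh2+/+ tumours, with a log2 fold change of -0.16 and a 95% interval of -0.41 to 0.09 (adjusted p = 0.355). For both probe sets the interval excluded a change in signal as large as the smallest rise in the family. Whether these genes are expressed in the tumours was not tested. Col24a1, a fibrillar collagen gene outside the chosen set, had a log2 fold change of -0.18 (SE 0.09, adjusted p = 0.186).

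Rescaling the arrays left the order of the family nearly as it was. The log2 fold changes of Col1a1, Col1a2, Col3a1, Col5a1, Col5a2 and Col11a1 stayed between 0.81 and 2.30 under quantile normalization, cyclic loess and median centring over all probe sets. Median centring over all probe sets moved the median of all genes to 0.20, and relative to that median Col2a1 at 0.12 and Col27a1 at 0.015 were still lower. Col5a3 had 0.089 as deposited and -0.027 under cyclic loess.

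**Figure D2:**
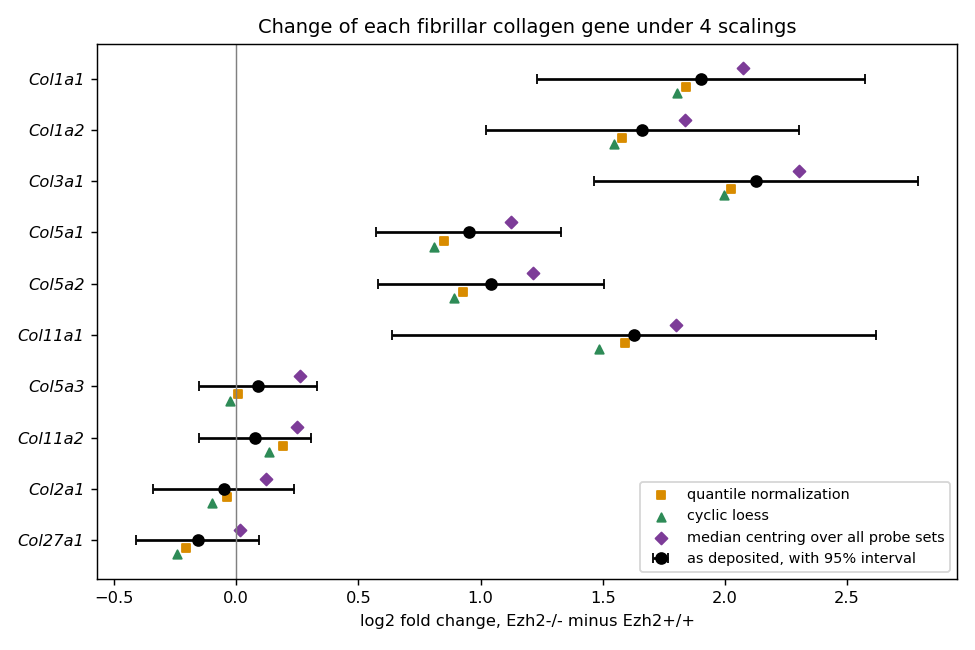
Log2 fold change (Ezh2-/- minus Ezh2+/+) of each fibrillar collagen gene on the x axis, as deposited with its 95% interval (black) and after quantile normalization (orange), cyclic loess (green) and median centring over all probe sets (purple). The upper 6 genes stay well to the right of 0 under each scaling, and the lower 4 lie near 0.

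Whether fibrillar collagen genes changed by unequal amounts was asked within each array, where a shift of the whole array cancels, by the difference of 2 log2 signals. There were 9 pairs, taken within types I, V and XI, between Col11a1 and Col5a1, and against Col1a1. For 4 of them the genotypes did not overlap and an exact two-sided permutation test over tumours gave p = 0.00794, the smallest that 252 regroupings allow (adjusted p = 0.0179 over the 9 pairs). Col5a1 changed by less than Col1a1, with a difference of -0.95 (95% interval -1.69 to -0.22), although the nearest tumours of both genotypes were almost equal. Col5a3 changed by less than Col5a1, with a difference of -0.86 (95% interval -1.26 to -0.46). Against Col1a1, the difference was -1.95 for Col2a1 (interval -2.90 to -1.0) and -2.06 for Col27a1 (interval -3.03 to -1.09). Neither Col2a1 nor Col27a1 was called, so these differences largely restate the rise of Col1a1 by 1.90 on the log2 scale. Col5a3 was not called either, so its difference from Col5a1 largely restates the rise of Col5a1 by 0.95.

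The call for Col5a1 against Col1a1 was lost without Ezh2-/- replicate 2, 3 or 4 (adjusted p = 0.0893 each in exact tests) and without Ezh2-/- replicate 5 (adjusted p = 0.0714), and that for Col5a3 against Col5a1 was lost when the probe sets of Col5a1 were averaged (difference -0.20, adjusted p = 0.134). The other 5 pairs did not pass. Both chains of type I differed in their change by 0.24 (Col1a1 minus Col1a2, 95% interval -0.01 to 0.49, exact adjusted p = 0.119), and without Ezh2-/- replicate 1 this difference was 0.31 (exact adjusted p = 0.0429). Col3a1 minus Col1a1 gave 0.23 (-0.33 to 0.78), Col5a2 minus Col5a1 gave 0.09 (-0.27 to 0.46), Col11a1 minus Col5a1 gave 0.68 (-0.48 to 1.83) and Col11a2 minus Col11a1 gave -1.55 (-2.84 to -0.26, exact adjusted p = 0.0857). The wide intervals of the pairs with Col11a1 go with its spread between tumours.

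**Figure D3:**
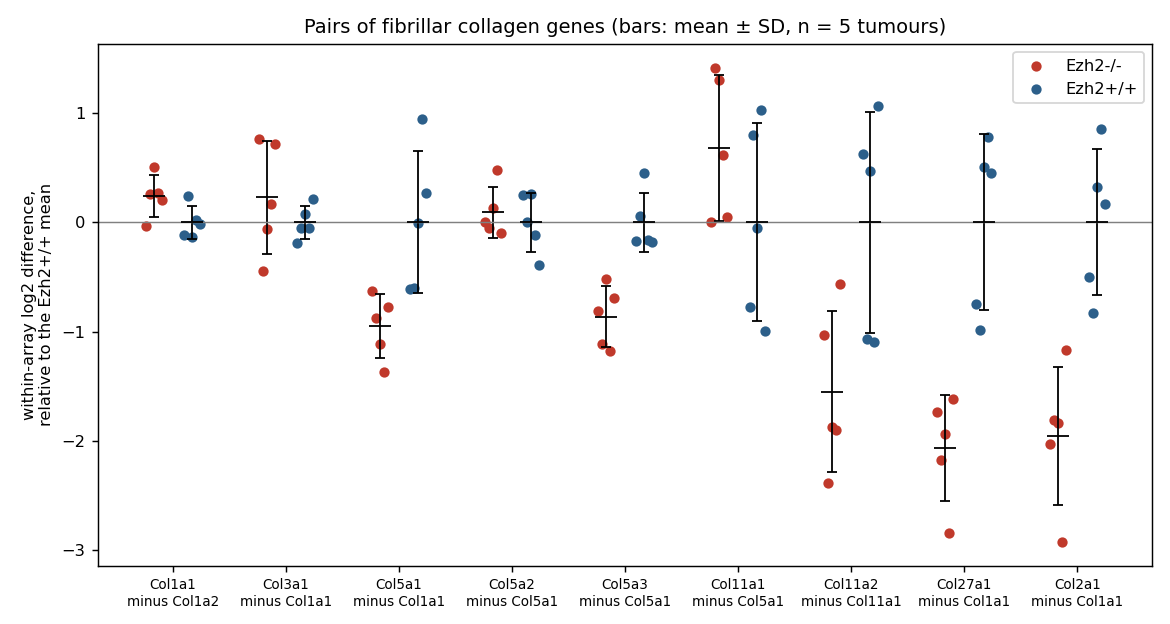
Within-array difference of 2 log2 signals for 9 pairs of fibrillar collagen genes, relative to the Ezh2+/+ mean of the pair, with each tumour as a point (Ezh2-/- red, Ezh2+/+ blue) and the mean ± SD (n = 5) as a bar. For Col5a1, Col27a1 and Col2a1 against Col1a1 and for Col5a3 against Col5a1 all red points lie below all blue ones.

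Across tumours, the genes that rose did not share one order. Among Ezh2-/- tumours, replicate 4 was highest for 5 of the 6 genes (Col1a1, Col1a2, Col3a1, Col5a1 and Col5a2) and replicate 5 was lowest for 5 (Col1a1, Col1a2, Col5a1, Col5a2 and Col11a1). Col11a1 was highest in replicate 2, 2.44 above the Ezh2+/+ mean, where Col3a1 was at its lowest for the genotype, 1.45 above. Among Ezh2+/+ tumours, replicate 4 had the lowest signal of Col1a1, Col1a2 and Col3a1, at -0.70, -0.72 and -0.75 from the mean of its genotype, but the highest signal of Col5a1 and Col11a1, at 0.25 and 1.27. Replicate 3 was lowest for Col5a1 and Col5a2, at -0.57 and -0.32.

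**Figure D4:**
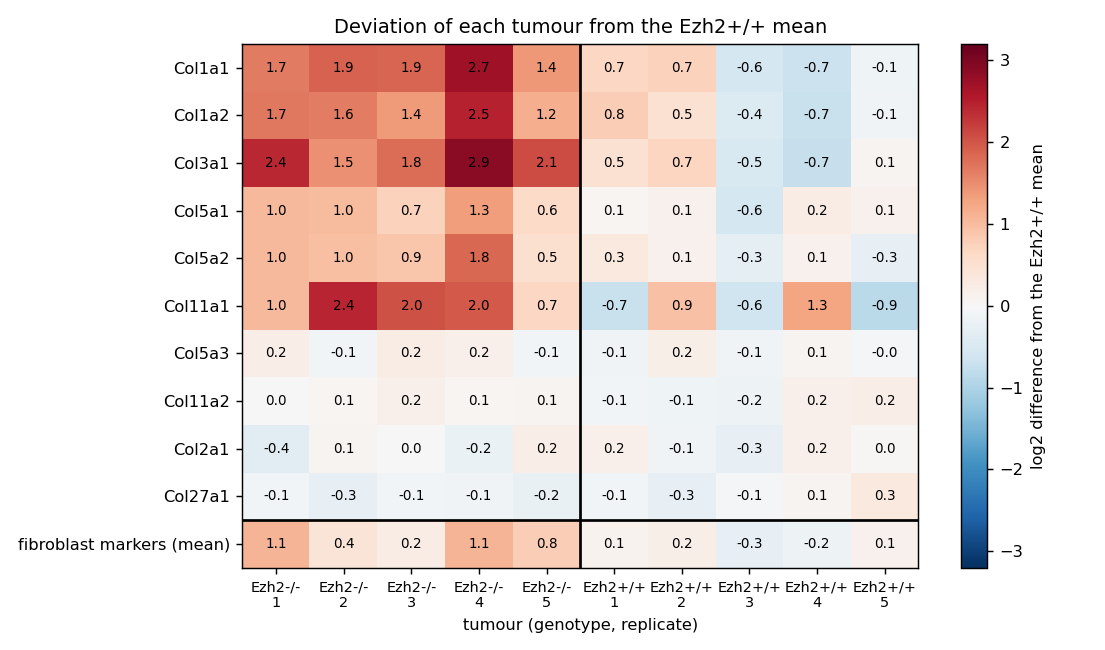
Log2 difference of each tumour (columns, Ezh2-/- replicates 1 to 5, then Ezh2+/+ replicates 1 to 5) from the Ezh2+/+ mean, for the 10 fibrillar collagen genes and for the mean of 16 fibroblast markers (bottom row), with red above and blue below that mean. The upper 6 rows are red in every Ezh2-/- tumour, and Ezh2+/+ replicate 4 is blue for types I and III and red for Col11a1.

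The genes whose profile over the 10 tumours came closest to the mean of Col1a1, Col1a2 and Col3a1 were found by the root mean square of the log2 difference after centring each gene on its own mean. They were Mmp2, a gelatinase that also cleaves collagen (0.19), Spon1, which encodes a secreted matrix protein (0.21), Loxl1, a lysyl oxidase (0.23), Postn, which encodes the matrix protein periostin (0.27), and Cpxm2, of the carboxypeptidase family (0.32). Mmp2 had log2 signals of 8.71, 8.09, 8.02, 9.27 and 7.97 in Ezh2-/- tumours, against 7.22, 7.28, 6.17, 6.32 and 6.44 in Ezh2+/+ tumours. Like the collagens it was highest in Ezh2-/- replicate 4 and lowest in Ezh2+/+ replicates 3 and 4. The log2 fold changes of the 5 genes lay between 1.59 for Spon1 and 1.78 for Loxl1. Since a gene is close in this measure only if it differs between genotypes alike, these changes are a description of the choice and no further test.

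Genes that make, bind and degrade collagen fibrils were counted in 8 lists. Of 106 listed genes 99 were measured, of which 29 rose, 1 fell and 69 did not pass, with a median log2 fold change of 0.39, against 0.026 over all genes. The count of 29 was 16 without Ezh2-/- replicate 4, 16 with the methods' test after adjustment, 19 after cyclic loess and 47 after median centring over all probe sets. In these settings 3.37%, 3.89%, 4.93% and 23.5% of all genes were called higher, against 7.29% where 29 were. Of 19 measured genes for the folding and modification of procollagen, 5 rose and 14 did not pass (median 0.32). Crtap and P3h1, whose products belong to the complex that 3-hydroxylates proline in fibrillar procollagen, rose by 0.69 (SE 0.13, adjusted p = 0.00688) and 0.88 (SE 0.17, adjusted p = 0.00698). Ppib, of the same list and complex and named after its values were seen, had a log2 fold change of -0.15 (limma adjusted p = 0.402). Crtap signals were 8.64 to 9.28 in Ezh2-/- tumours, against 8.11 to 8.48 in Ezh2+/+ tumours, and those of P3h1 were 6.63 to 6.89 in Ezh2-/- tumours, against 5.46 to 6.35 in Ezh2+/+ tumours, so neither overlapped. Colgalt2, a galactosyltransferase of collagen hydroxylysine, rose by 0.69 with overlap (adjusted p = 0.0146), and P3h3 and Fkbp7, named after their values were seen because the count was small, rose by 0.32 and 0.62. The count was 3 without any 1 of Ezh2-/- replicates 1, 2 and 4 and Ezh2+/+ replicates 3 and 4. It was 7 without Ezh2+/+ replicate 1 and 9 after median centring over all probe sets.

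Of 9 measured genes for the cleavage of procollagen, 1 rose and 8 did not pass (median -0.07). Pcolce, the enhancer of the C-proteinase that removes the propeptide, was 6.44 to 7.87 in Ezh2-/- tumours, against 5.78 to 6.56 in Ezh2+/+ tumours. Its rise of 1.02 (adjusted p = 0.0200) was lost without Ezh2-/- replicate 4, without both tumours high in Acta1, after cyclic loess and with the methods' test. Bmp1, the C-proteinase, had a log2 fold change of 0.61 (adjusted p = 0.0696) and Tll2, a relative of Bmp1, one of -0.39 (adjusted p = 0.0725). Of 4 measured lysyl oxidase genes 1 rose and 3 did not pass (median 0.82). Loxl1 signals were 8.74, 8.05, 7.66, 9.11 and 8.10 in Ezh2-/- tumours, against 7.13, 6.96, 5.99, 6.12 and 6.57 in Ezh2+/+ tumours, without overlap (adjusted p = 0.00280). Loxl3 and Lox had log2 fold changes of 0.88 and 0.76 with overlap (adjusted p = 0.0832 and 0.0926 from limma).

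Proteins on the surface of the fibril had the highest median log2 fold change of the 8 pathway lists. Of 15 measured genes of fibril-binding proteins, 7 rose and 8 did not pass (median 1.00), and 3 rose without any 1 of Ezh2-/- replicates 1 and 4 and Ezh2+/+ replicates 3 and 4, or without both tumours high in Acta1. With the methods' test after adjustment 1 rose. The count was 9 without Ezh2+/+ replicate 2 and 11 after median centring over all probe sets, where 23.5% of all genes were higher. Lum, which encodes lumican, a small proteoglycan that regulates fibril spacing, had log2 signals of 8.26, 7.33, 7.34, 8.44 and 7.96 in Ezh2-/- tumours, against 5.48, 6.62, 4.51, 3.96 and 5.89 in Ezh2+/+ tumours. The ranges did not meet, and Ezh2+/+ replicates 3 and 4 were again the lowest (log2 fold change 2.57, SE 0.43, adjusted p = 0.00347). Ogn and Aspn, of the same family of leucine-rich proteoglycans, rose by 1.54 and 1.58 (adjusted p = 0.0169 and 0.0176). Dcn and Bgn, for decorin and biglycan, named after their values were seen, rose by 1.86 and 1.00 (adjusted p = 0.0465 and 0.0291). Of 9 measured genes of fibril-associated collagens 3 rose and 6 did not pass (median 0.33): Col16a1 by 0.64 (adjusted p = 0.00633), Col14a1 by 1.27 (adjusted p = 0.0148) and Col9a1 by 0.80 (adjusted p = 0.0313). With the methods' test after adjustment 1 of the 9 rose.

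Of 10 measured collagen receptor genes, 1 rose, 1 fell and 8 did not pass (median 0.30). Mrc2, an endocytic receptor that takes up collagen fragments, rose by 0.49 (adjusted p = 0.0244), and Gp6, the collagen receptor of platelets, fell by 0.65 on the log2 scale (adjusted p = 0.0480). Mrc2 lost its call after cyclic loess and without Ezh2-/- replicate 1, 2 or 4 or Ezh2+/+ replicate 3 or 5, and Gp6 lost its call after quantile normalization, after cyclic loess, after median centring over all probe sets, with the methods' test, with all probe sets tested, without both tumours high in Acta1 and without Ezh2-/- replicate 1, 3, 4 or 5 or Ezh2+/+ replicate 1, 2, 4 or 5. With the 40% dimmest genes left out, no receptor gene was called lower. Adgrg1, a receptor of type III collagen, had a log2 fold change of 0.66 (adjusted p = 0.103). Of 10 measured genes for the degradation of fibrillar collagen 3 rose and 7 did not pass (median 0.19). They were Mmp2 at 1.73 (adjusted p = 0.00336), Ctsk, for the collagen-cleaving cathepsin K, at 1.56 (adjusted p = 0.00766), and Fap, a proteinase of activated fibroblasts, at 1.10 (adjusted p = 0.0199), each without overlap between genotypes.

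Of 23 measured genes of regulators known to act on fibrillar collagen genes, 8 rose and 15 did not pass (median 0.41), and 5 rose without Ezh2-/- replicate 4, after cyclic loess or with the methods' test after adjustment. Without Ezh2-/- replicate 5 the count was 11. Srf, a transcription factor, rose by 0.57 (adjusted p = 0.00783), Tgfb3, a ligand of the TGF-beta pathway, which raises collagen synthesis in fibroblasts, by 0.89 (adjusted p = 0.0102), and Tgfbr2, its receptor, by 0.74 (adjusted p = 0.0119). Tgfbr2 signals were 7.92 to 8.74 in Ezh2-/- tumours, against 7.30 to 7.86 in Ezh2+/+ tumours, without overlap. Sox9, an activator of Col2a1 and Col11a2 in cartilage, named after its value was seen, rose by 1.30 (SE 0.31, adjusted p = 0.0182). Col2a1 and Col11a2 did not pass, whereas Col11a1, also of type XI, was called higher as given above. A link between Sox9 and these genes was not tested.

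**Figure D5:**
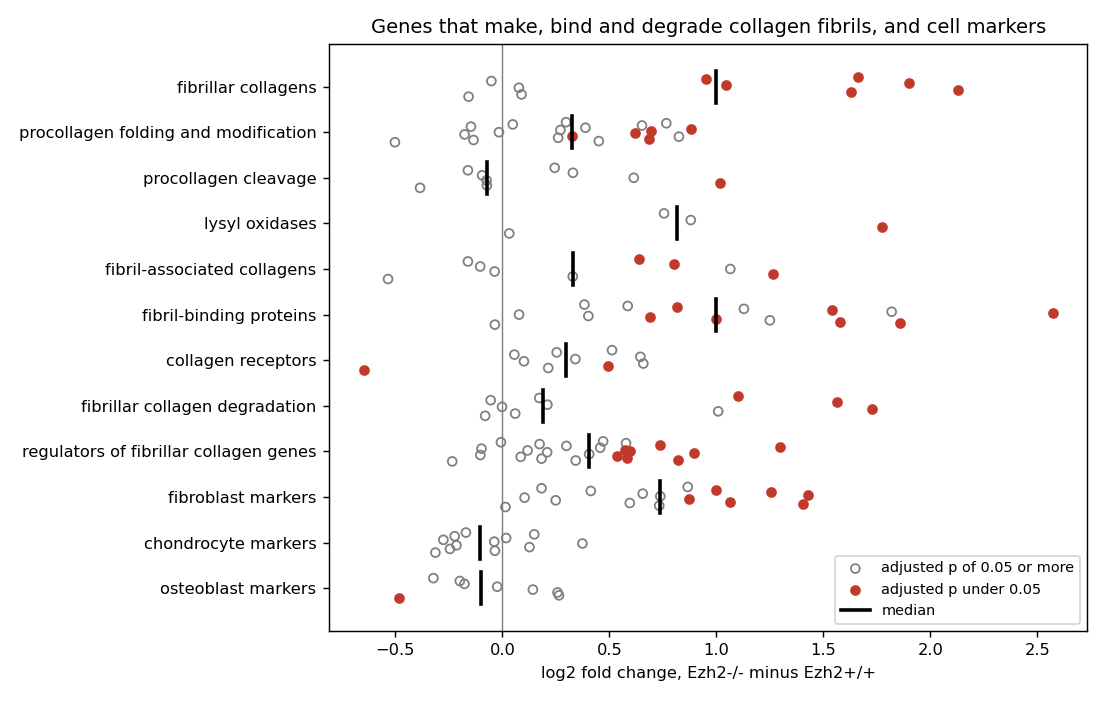
Log2 fold change (Ezh2-/- minus Ezh2+/+, x axis) of each measured gene in the fibrillar collagens, 8 lists of genes that make, bind, degrade or regulate them and 3 lists of cell markers, with filled red points for an adjusted p under 0.05 from limma, open points for the rest and a black line at the median. The fibrillar collagens and fibril-binding proteins have medians of 1.00, while those of chondrocyte and osteoblast markers are at -0.10.

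Of 16 fibroblast markers 6 rose and 10 did not pass (median 0.74). Without Ezh2-/- replicate 4 or without both tumours high in Acta1 3 of them rose, and with the methods' test after adjustment 2. Without Ezh2-/- replicate 3 the count was 9, and with the replicate number as a block it was 10. After median centring over all probe sets, where 23.5% of all genes were higher, 11 of these markers rose. Their mean log2 level was 6.97, 6.29, 6.12, 6.97 and 6.67 in Ezh2-/- tumours, against 6.0, 6.07, 5.62, 5.72 and 6.01 in Ezh2+/+ tumours. No Ezh2+/+ tumour reached the Ezh2-/- range, though Ezh2-/- replicates 2 and 3 came close to the Ezh2+/+ range. Pdgfra, a receptor that defines fibroblasts, had signals of 7.29, 7.48, 6.62, 7.84 and 6.72 in Ezh2-/- tumours and 6.54, 6.10, 5.07, 5.44 and 5.66 in Ezh2+/+ tumours (log2 fold change 1.43, adjusted p = 0.00874). Thy1 and Cd34 rose by 1.00 and 1.06. In whole tumours, a larger number of cells of one type and more RNA per cell cannot be told apart, and the part of fibroblast content in the rise of the collagen genes was not tested.

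Chondrocytes make type II collagen in cartilage and osteoblasts make type I collagen in bone. In limma 0 of 12 chondrocyte markers passed, with 3 at an unadjusted p under 0.05 and 0 under the methods' test after adjustment (median -0.10), and 1 was higher after quantile normalization, cyclic loess and median centring over all probe sets. Their mean level was 4.22 to 4.41 in Ezh2-/- tumours, against 4.11 to 4.65 in Ezh2+/+ tumours, and Acan, the defining proteoglycan of cartilage, had a log2 fold change of -0.28 (adjusted p = 0.126). The log2 fold change was 0.37 for Ucma, a cartilage matrix protein (adjusted p = 0.0992), and -0.22 for Comp, a cartilage matrix protein that binds collagen (adjusted p = 0.126). Of 8 measured osteoblast markers, 1 fell and 7 did not pass (median -0.10), with a mean level of 4.13 to 4.32 in Ezh2-/- tumours, against 4.08 to 4.47 in Ezh2+/+ tumours. The one that fell was Sp7, a transcription factor of osteoblasts, at -0.48 (adjusted p = 0.0263), and it was not called after quantile normalization, cyclic loess or median centring over all probe sets, nor without Ezh2-/- replicate 1, 2 or 3 or Ezh2+/+ replicate 5. With the 40% dimmest genes left out, no osteoblast marker was called lower. The bone matrix genes Mepe and Ibsp had log2 fold changes of -0.32 and -0.20 (adjusted p = 0.101 and 0.262), and Bglap, for osteocalcin, had a log2 fold change of -0.18 (adjusted p = 0.390).

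Other cell types varied too. Of 12 endothelial markers 6 rose (median 0.56), with a mean level of 5.73 to 6.30 in Ezh2-/- tumours, against 5.34 to 5.83 in Ezh2+/+ tumours, and 3 rose without Ezh2-/- replicate 4 and 2 with the methods' test after adjustment. The endothelial count was 8 without Ezh2-/- replicate 5 and 10 after median centring over all probe sets. Of 10 measured macrophage markers 3 rose (median 0.62, mean level 7.0 to 7.68 in Ezh2-/- and 6.59 to 7.14 in Ezh2+/+ tumours), of 9 adipocyte markers 2 (median 0.97, mean level 5.21 to 7.79 in Ezh2-/- and 4.78 to 5.91 in Ezh2+/+ tumours), and of 7 myoepithelial markers 1 (median 0.32, mean level 6.12 to 6.39 in Ezh2-/- and 5.46 to 6.45 in Ezh2+/+ tumours). For adipocytes the count was 0 without Ezh2-/- replicate 4 and with the methods' test after adjustment, 1 without Ezh2+/+ replicate 3, 4 or 5 or without both tumours high in Acta1, 5 without Ezh2-/- replicate 2 and 6 without Ezh2-/- replicate 3. For macrophages it was 1 with the methods' test after adjustment, after cyclic loess or without both tumours high in Acta1. The macrophage count was 6 with the replicate number as a block and 7 after median centring over all probe sets. The myoepithelial call was lost with the methods' test after adjustment, after quantile normalization or cyclic loess, and without Ezh2-/- replicate 1, 2, 3 or 4 or Ezh2+/+ replicate 1, 3 or 5. In limma and under the methods' test with adjustment 0 of 12 skeletal muscle markers passed, with 5 at an unadjusted p under 0.05 in limma (median 1.37, mean level 4.55 to 8.37 in Ezh2-/- and 4.41 to 5.00 in Ezh2+/+ tumours). In both tests 0 of 10 markers of pericytes and smooth muscle passed, with 2 at an unadjusted p under 0.05 (median 0.17, mean level 5.83 to 6.58 in Ezh2-/- and 5.87 to 6.24 in Ezh2+/+ tumours). Of 12 luminal epithelial markers 0 passed in both tests, with 4 at an unadjusted p under 0.05 (median 0.06, mean level 8.63 to 9.08 in Ezh2-/- and 8.58 to 8.93 in Ezh2+/+ tumours). Counts of 0 changed in other settings. Without Ezh2-/- replicate 5, 2 luminal markers were higher, and without Ezh2+/+ replicate 1, 1 was lower. Without Ezh2-/- replicate 3, 1 skeletal muscle marker was higher. After median centring over all probe sets 3 markers of pericytes and smooth muscle were higher. The part of these cell types in the change of the collagen genes was not tested.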

How the data were processed

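Affymetrix Mouse Gene 2.0 ST arrays were used to measure total RNA from 10 endpoint tumours. The authors normalized the scans to gene level with Affymetrix Expression Console, and compared genotypes with Transcriptome Analysis Console. From the range of the deposited values they were read as log2, the log base and algorithm being not given in the sources used here.

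By the platform annotation, 23521 probe sets had a single gene symbol (23328 matched RefSeq by Entrez ID), 1820 had several and 16004 were not listed. They stood for 22180 genes, and of genes with more than 1 probe set that with the highest mean was used. No pair of arrays was identical. Genotypes were compared with limma 3.58.1 in R 4.3.3 (two-sided, Benjamini-Hochberg over all genes, called at an adjusted p under 0.05), after the test was checked on simulated data. Pairs of genes were compared by an exact permutation test over tumours, and the 95% intervals of these differences used the pooled variance of both genotypes. The array's genome build is not given in the sources used here, so coordinates and promoter windows are those of RefSeq genes with the same symbol in GRCm38.p6. Plots were made in Python 3.11.15 (matplotlib 3.10.9).

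The members, gene lists and tests were chosen with earlier results of these data known. The text names every member, Col24a1, Ezh2, the 3 genes of smallest p in each of the 8 pathway lists and in the fibroblast, chondrocyte and osteoblast lists, defining markers and the 5 closest profiles, and says where another gene was named after its values were seen. Epyc stood in both the fibril-binding and the chondrocyte list, and Tcf21 among both regulators and fibroblast markers. Alternatives were the methods' equal-variance test, a trended robust prior, array weights, quantile, median and cyclic loess scaling, a filter on the 40% dimmest genes, a block for the replicate number, leaving out each tumour, the mean of probe sets and a test of all probe sets. Leaving out both tumours high in Acta1, a fold threshold of 1.5 and median centring over all probe sets were added after the data were seen.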

Additional observations from a re-analysis of the deposited data

Results flagged for a closer look

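In 124 groups of 5 tumours, 3 had a tumour that stood far from the other 4, where chance alone flags about 1 group in 20. Col5a1 in Ezh2+/+ tumours was lowest in replicate 3, at 5.36, against 5.99 to 6.18 in the other Ezh2+/+ tumours. Tgfb3 in Ezh2-/- tumours was lowest in replicate 5, at 9.35, against 9.93 to 10.2. Acan in Ezh2-/- tumours was also lowest in replicate 5, at 3.47, against 3.90 to 4.02.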

How the results depend on the processing

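Among the fibrillar collagen genes 5 or 6 were called higher and 0 lower under each alternative run, and Col1a1, Col1a2, Col3a1 and Col5a2 kept their calls in all of them. Col11a1 lost its call as given above, and Col5a1 lost its call when probe sets were averaged. Signs turned, without a call, for Col5a3 after cyclic loess (-0.027) and for Col2a1 without Ezh2-/- replicate 1 (0.028, in a range of -0.12 to 0.028 without single tumours). Median centring over all probe sets put Col2a1 at 0.12 and Col27a1 at 0.015, both still below the median of all genes, which it moved to 0.20.

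Whether the replicate numbers pair the tumours was not settled (correlation of deviations with the same number -0.04 to 0.34). The best match had the same number for replicates 3 and 5 only. With the replicate number as a block, 6 fibrillar collagen genes were called higher, 2552 genes in all were higher and 1894 lower. The blocked pair differences were -0.95 for Col5a1 minus Col1a1, -0.86 for Col5a3 minus Col5a1, -2.06 for Col27a1 minus Col1a1 and -1.95 for Col2a1 minus Col1a1, and none passed in an exact sign-flip test, which cannot go below p = 0.0625 (adjusted p = 0.0938 each).

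Over all genes, 1617 were higher and 1676 lower. The methods' test called 862 higher after adjustment, 3572 higher and 3321 lower without it, and 1063 and 950 with a fold over 1.5. Array weights gave 2434 higher, quantile normalization 882 lower, cyclic loess 996 lower, leaving out the dimmest genes 535 lower, testing all probe sets 4415 lower, and median centring over all probe sets 5219 higher and 927 lower. Without single tumours 748 to 2519 genes were higher and 983 to 1920 lower, both lowest without Ezh2-/- replicate 4 and highest without Ezh2-/- replicate 5. Of the pathway genes 29 were higher, against 16 with the methods' test after adjustment, 19 after cyclic loess, 47 after median centring over all probe sets and 16 to 36 without single tumours. The count of 1 lower pathway gene became 0 with the methods' test after adjustment, quantile normalization, cyclic loess, the filter on dim genes, all probe sets, median centring over all probe sets and without both tumours high in Acta1, 4 with the methods' test unadjusted, and 0 to 1 without single tumours. The causes were not tested.

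For the pairs, leaving out single tumours gave 0.17 to 0.31 for Col1a1 minus Col1a2, -1.10 to -0.71 for Col5a1 minus Col1a1, and -0.005 to 0.16 for Col5a2 minus Col5a1, which turned negative without Ezh2-/- replicate 4 (-0.0047) and without Ezh2+/+ replicate 5 (-0.0042). With averaged probe sets Col5a2 minus Col5a1 was 0.76 (exact adjusted p = 0.0179) and Col5a3 minus Col5a1 was -0.20.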
